A study of Mus musculus with 12 samples.

Results

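Fat and Dachsous proteins are giant cadherins, and together with the core proteins of planar cell polarity they were followed here through 10 genes listed by symbol: Dchs1, Dchs2, Fat1, Fat3, Fat4, Fjx1, Vangl1, Vangl2, Celsr1 and Celsr2. Entrez identifiers tied 9 of the 10 to a row of a table of 27179 genes, and all 9 passed the filter on low counts that 14136 genes passed. Dchs2 matched no row used here. The genes were chosen by their place in this pathway with the differences between the compounds already known, foremost the low Dchs1 counts with WM-8014, so their values in those comparisons are descriptions with no test. Their changes over time were tested, but in the same libraries and with earlier results known, so those p values are no independent support. The cells were mouse embryonic fibroblasts, the mesenchymal cells that grow out of dissociated embryos (wild-type C57BL/6, E13.5), and they were kept in 3% oxygen before their poly(A) RNA was sequenced. Cells were given 10 µM WM-8014, labelled a MYST inhibitor (MYST enzymes are histone acetyltransferases), or 10 µM WM-2474, labelled the inactive control. Each compound was given for 96 h or for 240 h. Each of these 4 groups holds 3 libraries, from cultures numbered 5, 6 and 7, so there are 12 in all, and no group went without a compound.

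Dachsous on one cell binds Fat on its neighbour, and the orientation of these pairs across a tissue is one of the systems that polarise cells in its plane. The kinase Four-jointed, whose mouse relative is Fjx1, phosphorylates the cadherin repeats of both partners in flies and tunes their binding. A second system, the core pathway, places Frizzled, Dishevelled, Vangl, Prickle and the seven-pass cadherins Celsr at opposite cell borders. Fat signalling restrains growth through the Hippo kinases in flies. In mice the Dchs1 and Fat4 pair is known for roles in mesenchyme, such as kidney stroma and skeleton, and Vangl2 and Celsr1 for closure of the neural tube.

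Totals per library ran from 10147466 to 45903190 reads, so that 3 reads corresponded to 0.0614 to 0.302 CPM (counts scaled to 1e6 reads of a library, with TMM adjustment). Markers of fibroblasts were present in all groups, with 11 of 11 past the filter and a summed level of 23238 to 40013 CPM over the libraries. Col1a1 and Col1a2 made up most of that sum, so it can hide changes in the other markers. At 240 h, 1 of the 11 was higher with WM-8014 and 4 were lower (edgeR, adjusted p under 0.05, median log2 fold change -0.18). Over all tested genes 21.2% were higher and 21.4% lower (42.6% in all), and with 11 genes no difference from that background is read. The lower ones were Lum (log2 -2.29), Fap (-1.65), Pdgfra (-0.43) and Twist1 (-0.18), and the higher one was Vim (0.14). Fap stood at 11.1 ± 0.246 CPM under WM-2474 and at 3.47 ± 0.734 CPM under WM-8014. The epithelial genes Cdh1 and Epcam had at most 12 and 5 reads in a group of 3 libraries. Krt19 and Msln, also among the epithelium and mesothelium markers, had more. In the WM-2474 96 h group they held 1558 and 1218 reads (means of 21.2 and 18.9 CPM). The libraries are labelled female, yet each held 96.2 to 124 CPM of the Y-linked gene Ddx3y and at most 4 reads of Xist. With WM-2474 at 96 h, cultures 6 and 7 (early controls 6 and 7 from here on) differed from the other 10 libraries in Misp3 (0.723 to 0.942 CPM against 79.8 to 285 CPM) and in Stag3 (1.81 to 2.5 CPM against 22.9 to 37.5 CPM), genes chosen for that difference. Counts that rest on these 2 libraries are therefore also given without them, which leaves 1 library in its group and assumes that it varied like the others. In bulk RNA, fewer cells of a type and less RNA per cell cannot be told apart.

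Levels of different genes were compared per kilobase of gene length (RPKM). In the WM-2474 96 h group Fat1 stood highest at 50.6 ± 1.39 RPKM (mean ± SD, n = 3, as for all means here). It was followed by Vangl1 at 8.68 ± 0.207, Vangl2 at 6.27 ± 0.123, Fat4 at 5.81 ± 0.412, Fjx1 at 3.62 ± 0.218 and Dchs1 at 2.51 ± 0.0284 RPKM. Celsr2 at 0.197 ± 0.0533, Celsr1 at 0.0571 ± 0.00294 and Fat3 at 0.0297 ± 0.00473 RPKM were scarce. In the WM-8014 240 h group the order of the middle genes was another. Fjx1 stood second at 10.7 ± 0.389 RPKM, and Dchs1, at 0.295 ± 0.0857 RPKM, stood next above Celsr2 (0.0609 ± 0.0206 RPKM).

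**Figure D1:**
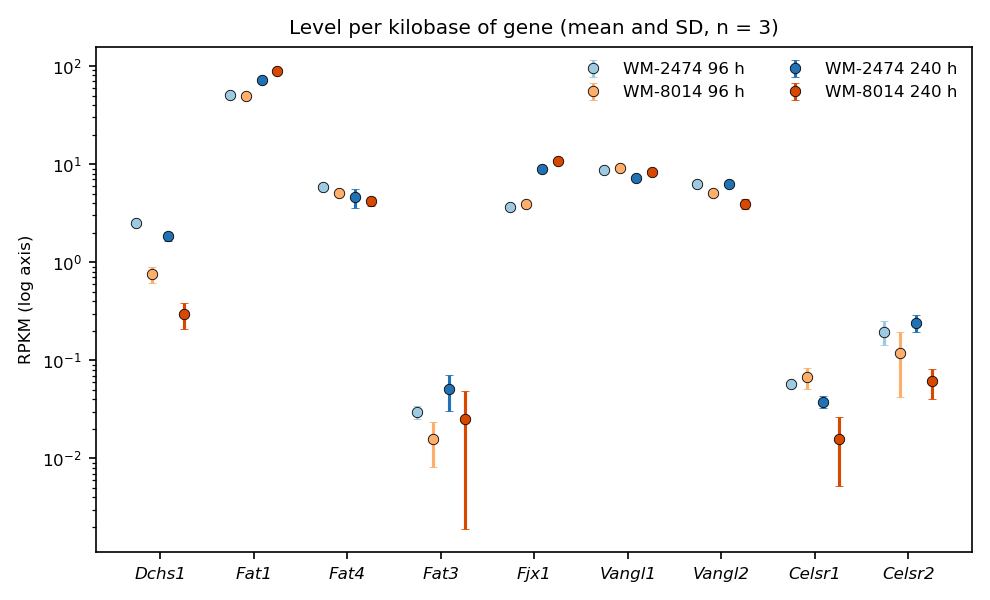
Level of each of the 9 genes in RPKM (log axis) in the 4 groups; points are means and bars the SD of 3 cultures. Fat1 is highest in every group, Celsr1, Celsr2 and Fat3 are the lowest 3 in every group, and Dchs1 spans 2.51 to 0.295 RPKM.

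Dchs1 (Entrez 233651) encodes the ligand cadherin Dachsous 1 and lies on chromosome 7 from 105752989 to 105788355, minus strand (GRCm38, the assembly of mm10). In the WM-2474 96 h group its level was 26.4, 27.0 and 26.8 CPM in cultures 5, 6 and 7. In the WM-8014 96 h group it was 8.55, 6.41 and 9.13 CPM. The later groups held 22.0, 18.4 and 18.7 CPM (WM-2474, 240 h) and 3.93, 2.14 and 3.35 CPM (WM-8014, 240 h). The 4 groups did not overlap, and they ran from WM-2474 96 h (highest) through WM-2474 240 h and WM-8014 96 h to WM-8014 240 h (lowest). With WM-8014 the level was 3.33-fold lower at 96 h (log2 fold change -1.74, SE 0.128) and 6.82-fold lower at 240 h (-2.77, SE 0.153), in 3 of 3 same-numbered cultures at each time. The first of these groups held 1967 reads of Dchs1 and the last 159. The effect at 240 h minus that at 96 h was -1.03 (SE 0.214) on the log2 scale, and -0.72 without culture 6 of WM-8014 at 240 h, which held the lowest level.

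Over time Dchs1 fell under both compounds, where time on compound and days in culture cannot be told apart. These tests share their libraries with the comparisons that led to the choice of Dchs1, and are no independent support. Under WM-8014 it fell by 1.48 on the log2 scale from 96 to 240 h (SE 0.182, adjusted p = 2.5e-06, edgeR's quasi-likelihood test with Benjamini-Hochberg adjustment over all genes, as below). Under WM-2474 it fell by 0.45 (SE 0.107, adjusted p = 0.00299). That smaller fall did not pass without early controls 6 and 7 (adjusted p = 0.132), nor without culture 7 in all groups (0.0633). Gm15645, a transcribed pseudogene on the opposite strand, shares 648 exonic bases with Dchs1 in GENCODE M21, and it held 0 to 3 reads per library in the table. Whether the counting used strand is not given in the sources used here.

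The 5 genes whose log2 CPM followed Dchs1 most closely over the 12 libraries, among 11986 genes with a symbol and a mean log2 CPM of at least 1, were Tlcd5 (Pearson's r = 0.987), Sfrp4 (0.982), Zfp9 (0.981), Igfbp5 (0.981) and Cspg4b (0.977). The libraries share the 4 groups, so these values are a description. With the group means taken out, the correlations were 0.861, 0.639, 0.576, 0.69 and 0.411 in the same order. Sfrp4, which encodes a secreted Wnt antagonist, had 3.84 ± 0.467 CPM in the WM-2474 96 h group and 3.25 ± 0.2 CPM in the WM-2474 240 h group. With WM-8014 it had 1.74 ± 0.411 CPM at 96 h and 1.02 ± 0.128 CPM at 240 h. Igfbp5, whose product binds insulin-like growth factors, ran from 1319 ± 80 CPM (WM-2474, 96 h) to 203 ± 24.2 CPM (WM-8014, 240 h).

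Among the Fat cadherins, which act as receptors for Dachsous or as adhesion proteins of their own, Fat1 (Entrez 14107, chromosome 8, 44933100 to 45052257) was the most abundant and stood higher at 240 h. In the WM-2474 96 h group it was at 740, 719 and 760 CPM in cultures 5, 6 and 7, and in the WM-8014 96 h group at 712, 769 and 696 CPM. These groups overlapped, with a log2 fold change of -0.03 (SE 0.0425, 95% interval -0.12 to 0.06). After 240 h the values were 1040, 1113 and 994 CPM under WM-2474 and 1290, 1312 and 1332 CPM under WM-8014. All WM-8014 libraries lay above all WM-2474 libraries there, by 1.25-fold (log2 0.32, SE 0.0421). From 96 to 240 h Fat1 rose under WM-2474 (log2 0.50, SE 0.0423, adjusted p = 4.65e-09) and under WM-8014 (0.85, SE 0.0426, adjusted p = 5.03e-13), in 3 of 3 cultures each, with values at the later time above every value at the earlier.

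Fat4 (Entrez 329628, chromosome 3, 38884667 to 39011992), the best known binding partner of Dchs1, differed little between the compounds. Its level was 86.0, 97.9 and 97.1 CPM in the WM-2474 96 h group and 79.4, 84.4 and 83.1 CPM in the WM-8014 96 h group. By 240 h the 3 WM-2474 cultures had 92.1, 65.6 and 64.0 CPM and the 3 WM-8014 cultures 66.2, 60.9 and 74.5 CPM. The compound groups lay just apart at 96 h and overlapped at 240 h, with log2 fold changes of -0.19 (95% interval -0.51 to 0.13) and -0.14 (-0.46 to 0.19). The changes over time, -0.35 under WM-2474 (adjusted p = 0.0768) and -0.30 under WM-8014 (adjusted p = 0.122), did not pass. Under WM-8014 Fat4 was lower at 240 h in 3 of 3 cultures with no overlap, and the fall passed with the compared groups alone (edgeR, adjusted p = 0.0018). Under WM-2474 the fall passed with DESeq2 (adjusted p = 0.0497). For Fat4, culture 5 of WM-2474 at 240 h stood above the other 2 of its group, and without it the changes were -0.53 (adjusted p = 2.10e-05) and -0.30 (adjusted p = 0.00129). That library is not part of the WM-8014 comparison and bears on it only through the shared fit. Antisense genes share 1209 and 281 exonic bases with Fat4 and 487 with Fat1 in GENCODE M21, and reads of the strands may not have been separated.

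Fat3 (Entrez 270120), a Fat cadherin best known from neurons, had only 13 to 56 reads per group, so its values carry wide errors. Its means were 0.549 ± 0.0873 CPM in the WM-2474 96 h group and 0.295 ± 0.142 CPM in the WM-8014 96 h group. The means at 240 h were 0.936 ± 0.379 CPM (WM-2474) and 0.465 ± 0.43 CPM (WM-8014). Only at 96 h did the compound groups not overlap. Differences between the compounds had 95% intervals of -2.28 to 0.66 at 96 h and -2.36 to 0.0016 at 240 h on the log2 scale. Neither change over time passed (adjusted p = 0.224 under WM-2474 and 0.662 under WM-8014). The first was 1.10 (adjusted p = 0.045) without culture 6 in all groups.

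Fjx1 (Entrez 14221, chromosome 2, 102449366 to 102451792), the Four-jointed relative, showed the steepest rise with time of the 9 genes. In the WM-2474 96 h group it was at 8.16, 9.11 and 9.05 CPM in cultures 5, 6 and 7, and in the WM-8014 96 h group at 9.71, 9.27 and 9.53 CPM. The 240 h cultures reached 20.2, 22.5 and 22.3 CPM under WM-2474 and 25.6, 25.4 and 27.1 CPM under WM-8014. No group overlapped another, the order being the reverse of that of Dchs1 in its highest and lowest group. From 96 to 240 h Fjx1 rose 2.44-fold under WM-2474 (log2 1.29, SE 0.076, adjusted p = 1.77e-11) and 2.74-fold under WM-8014 (1.45, SE 0.079, adjusted p = 2.06e-12), in 3 of 3 cultures each. The compound difference was 0.10 (SE 0.089) at 96 h and 0.26 (SE 0.0673) at 240 h on the log2 scale.

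**Figure D2:**
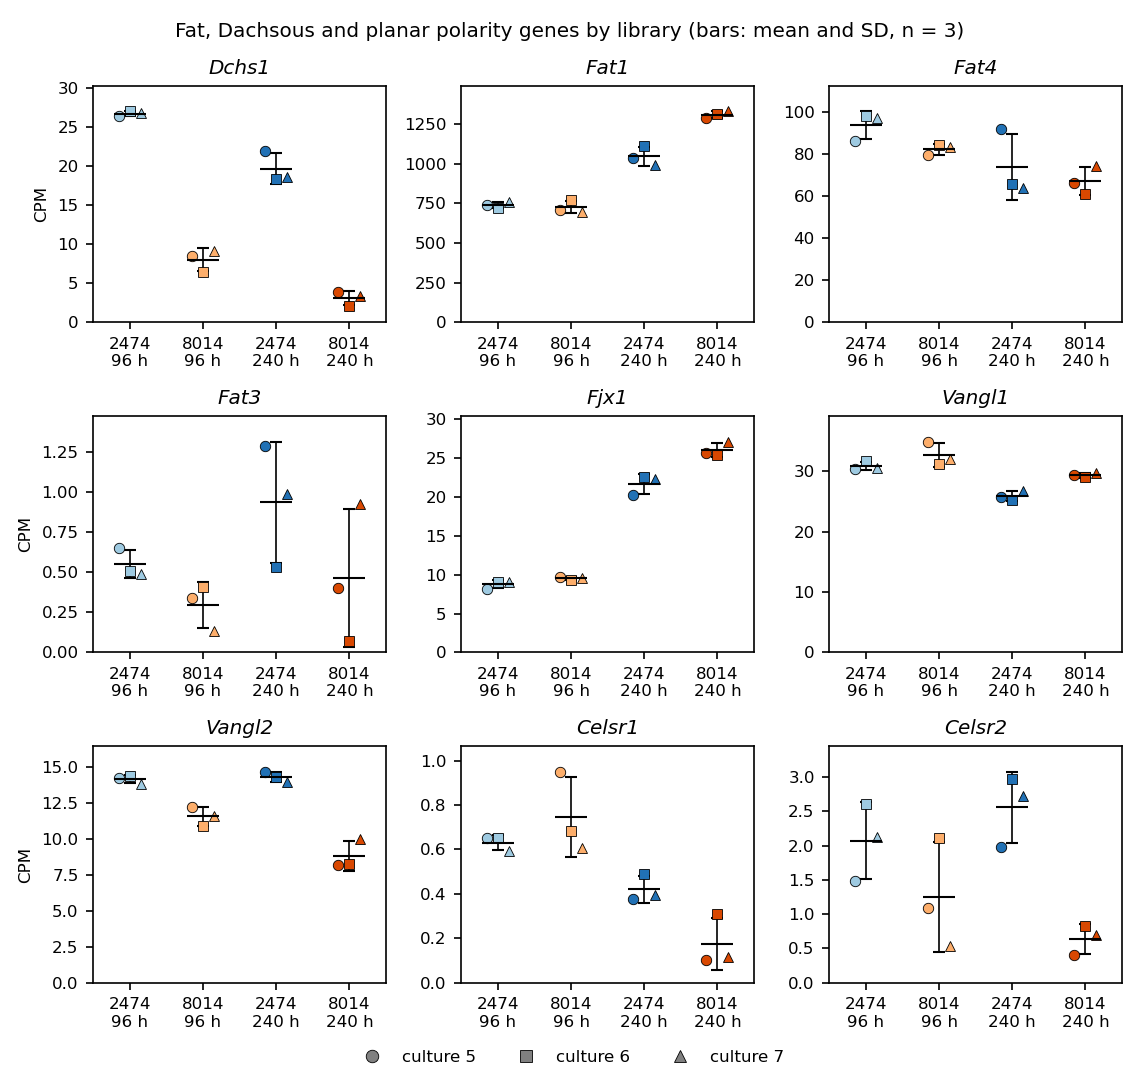
CPM of the 9 genes in each library, by group (WM-2474 and WM-8014 at 96 and 240 h); symbols mark cultures 5, 6 and 7, and bars the mean and SD of 3 cultures. Dchs1 stands at 26.8 CPM in the first group and 3.14 CPM in the last, Fjx1 and Fat1 stand higher at 240 h, and Fat3, Celsr1 and Celsr2 rest on few reads.

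The Vangl genes encode a pair of related membrane proteins of the core pathway, and they differed from each other. Vangl2 (Entrez 93840, chromosome 1, 172000960 to 172027318) was at 14.3, 14.4 and 13.9 CPM in the WM-2474 96 h group and at 14.7, 14.4 and 14.0 CPM in the WM-2474 240 h group. Under WM-8014 the cultures had 12.2, 10.9 and 11.6 CPM at 96 h and 8.17, 8.29 and 10.0 CPM at 240 h. The WM-2474 groups overlapped, and every WM-8014 library lay below them, with the 240 h group lowest. The compound difference was -0.28 (SE 0.0886) at 96 h and -0.70 (SE 0.0891) at 240 h on the log2 scale, a level 1.22-fold and 1.62-fold lower, in 3 of 3 cultures. From 96 to 240 h Vangl2 fell by 0.39 under WM-8014 (SE 0.0958, adjusted p = 0.00188), and under WM-2474 the change was 0.02 (95% interval -0.15 to 0.19, adjusted p = 0.867).

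Vangl1 (Entrez 229658, chromosome 3, 102153583 to 102204744) was at 30.4, 31.7 and 30.5 CPM in the WM-2474 96 h group and at 35.0, 31.1 and 32.0 CPM in the WM-8014 96 h group. After 240 h these levels were 25.8, 25.2 and 26.7 CPM (WM-2474) and 29.3, 29.0 and 29.8 CPM (WM-8014). The compound groups overlapped at 96 h (log2 0.08, SE 0.0572), and at 240 h the WM-8014 libraries were all higher (0.18, SE 0.0575). With time Vangl1 fell under WM-2474 (by 0.25, SE 0.0565, adjusted p = 0.00117) and under WM-8014 (by 0.16, SE 0.0581, adjusted p = 0.0299). The first fall did not pass without early controls 6 and 7 (adjusted p = 0.0956). The second did not pass without culture 5 (adjusted p = 0.255), 6 (0.0848) or 7 (0.0676) in all groups, without culture 5 of WM-8014 at 96 h (0.177), without culture 5 (0.0567) or 6 (0.102) of WM-8014 at 240 h, or with DESeq2 (0.106), among 21 alternatives of which 9 ended the call.

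Celsr1 and Celsr2, mouse relatives of the fly cadherin Flamingo that bridge neighbouring cells, were scarce. Celsr2 (Entrez 53883, chromosome 3, 108390848 to 108416069) had 1.48, 2.60 and 2.13 CPM in the WM-2474 96 h group and 1.09, 2.11 and 0.541 CPM in the WM-8014 96 h group. In the 240 h cultures 159 reads gave 1.98, 2.98 and 2.72 CPM under WM-2474, and 40 reads gave 0.403, 0.829 and 0.692 CPM under WM-8014. The compound groups overlapped at 96 h (log2 -0.76, SE 0.33; -1.37 without culture 6 and -0.40 without culture 7 of WM-8014 at 96 h, and -0.25 without early controls 6 and 7) and not at 240 h, where the level was 3.64-fold lower with WM-8014 (-1.86, SE 0.343). Its change with time under WM-8014, -0.82, did not pass (adjusted p = 0.111), and was -1.18 (adjusted p = 0.015) without culture 7 of WM-8014 at 96 h. Under WM-2474 the change was 0.29 (adjusted p = 0.44).

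Celsr1 (Entrez 12614, chromosome 15, 85898758 to 86034223) had 0.649, 0.651 and 0.594 CPM in the WM-2474 96 h group and 0.950, 0.682 and 0.608 CPM in the WM-8014 96 h group. Levels at 240 h were 0.375, 0.489 and 0.396 CPM under WM-2474 and 0.101, 0.311 and 0.115 CPM under WM-8014, the last from 1, 9 and 2 reads. Each culture was thus higher with WM-8014 at 96 h, within overlapping groups (log2 0.27, SE 0.335), and each was lower at 240 h, with no overlap (-0.98, SE 0.46). With time Celsr1 fell by 1.79 under WM-8014 (SE 0.434, adjusted p = 0.00165), and under WM-2474 its change of -0.54 did not pass (adjusted p = 0.244). The fall under WM-8014 was 2.69 without culture 6 of WM-8014 at 240 h, which held 9 of the 12 reads of its group.

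Of the 10 symbols, 6 matched a promoter window of RefSeq (GRCm38.p6), which spans 250 bases before to 50 after a gene start. The counts of CG dinucleotides per 300-base window were 40 in Celsr2, 35 in Fat3, 27 in Dchs2, 21 in Vangl2, 13 in Fat4 and 2 in Fat1, against a median of 7 over 32851 windows. At least as many as in Celsr2 were held by 3.91% of all windows, and as in Vangl2 by 24.8%. All 6 windows lie at starts inside the span that RefSeq gives the gene. The bases before such a start can thus belong to a longer transcript model. The window of Fat1 begins at 44949958, while its span on the plus strand begins at 44933100, so its count describes an internal start. The window of Vangl2 (172027246 to 172027545) runs past the end of its span at 172027318, and the others lie wholly inside. For Celsr2, which had the largest compound difference among the members with a window, and for Dact1, a modulator of Wnt and polarity signalling with the largest difference in its list at 240 h, the 250 bases before the start are shown 5′ to 3′ on the strand of the gene, with each CG in capitals. They lie at chr3:108415580-108415829 (minus strand, 32 CG) and at chr12:71309634-71309883 (plus strand, 41 CG), and no exon of GENCODE M21 overlaps them, although the Celsr2 stretch lies within the RefSeq gene span given above.
Celsr2: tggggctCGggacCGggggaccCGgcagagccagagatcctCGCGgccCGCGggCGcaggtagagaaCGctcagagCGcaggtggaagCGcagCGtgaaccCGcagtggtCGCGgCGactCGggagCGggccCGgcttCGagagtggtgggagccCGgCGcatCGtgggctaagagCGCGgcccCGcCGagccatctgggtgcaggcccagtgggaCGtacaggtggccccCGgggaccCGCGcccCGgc
Dact1: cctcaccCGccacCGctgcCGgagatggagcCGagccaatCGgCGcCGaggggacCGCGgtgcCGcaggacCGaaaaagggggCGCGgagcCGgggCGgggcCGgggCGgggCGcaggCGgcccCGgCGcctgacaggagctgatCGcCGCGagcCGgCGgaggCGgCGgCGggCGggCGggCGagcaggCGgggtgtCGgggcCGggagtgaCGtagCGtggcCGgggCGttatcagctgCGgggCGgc
Both stretches are dense in CG. A count of letters is a description of the window and says nothing on what binds there.

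Across the set, the genes that were lower with WM-8014 included the ligand Dchs1, Vangl2 and the scarce Celsr2, and those that were higher at 240 h included Fat1, Fjx1 and Vangl1. At 96 h none of the 9 was past the threshold of adjusted p under 0.05 on the higher side and 2 were on the lower side, Dchs1 and Vangl2, where 10.9% and 11.8% of all tested genes were (22.8% in all). At 240 h 3 were higher and 3 lower, where 21.2% and 21.4% of all genes were (42.6% in all). Groups did not overlap for 5 of the 9 genes at 96 h and for 7 at 240 h, against 38.0% and 51.8% of all genes. The median log2 fold change of the 9 was -0.19 at 96 h and -0.70 at 240 h, against 6.3e-05 and 0.01 over all tested genes. Since the genes were chosen with these comparisons known, the threshold serves as a description only, and nothing is read from the counts. The same holds for the counts without early controls 6 and 7. Without early controls 6 and 7, Dchs1 alone was past the threshold at 96 h, and 3 and 3 were at 240 h.

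**Figure D3:**
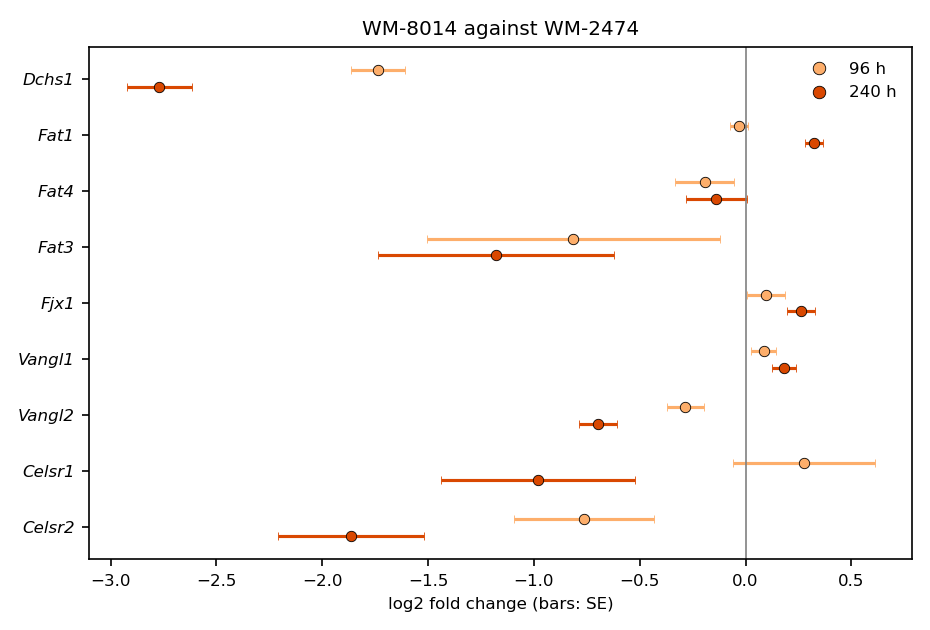
Log2 fold change of WM-8014 against WM-2474 for the 9 genes at 96 h and 240 h; bars are standard errors. Dchs1 lies at -1.74 and -2.77, Celsr2 and Vangl2 lie further below 0 at 240 h than at 96 h, and Fat1, Fjx1 and Vangl1 lie above 0 at 240 h.

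From 96 to 240 h under WM-2474, 2 of the 9 genes rose (Fat1, Fjx1), 2 fell (Dchs1, Vangl1) and 5 did not pass, where 19.8% and 19.1% of all tested genes rose and fell (38.9% in all). Under WM-8014, 2 rose (Fat1, Fjx1), 4 fell (Dchs1, Vangl1, Vangl2, Celsr1) and 3 did not pass, where 24.8% and 25.0% of all genes did (49.7% in all). With 9 genes, 4 and 6 of them called, no difference from those backgrounds is read. Groups did not overlap for 5 genes under WM-2474 and 7 under WM-8014, against 49.4% and 56.5% of all genes. The medians were 0.02 and -0.30, against -0.01 and -0.02 over all tested genes. Without early controls 6 and 7, 2 rose and 0 fell under WM-2474. The time changes under WM-2474 and WM-8014 lay furthest apart in Celsr1 (-0.54 and -1.79, from 12 to 45 reads per group), Celsr2 (0.29 and -0.82) and Dchs1 (-0.45 and -1.48). The gaps, not tested, were -1.25 (SE 0.57), -1.10 (SE 0.495) and -1.03 (SE 0.214). Fat1 (0.35, SE 0.0598) and Vangl2 (-0.41, SE 0.126) had smaller gaps with smaller errors. The gap was -2.16 in Celsr1 without culture 6 of WM-8014 at 240 h and -0.49 in Celsr2 without culture 6 of WM-8014 at 96 h.

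**Figure D4:**
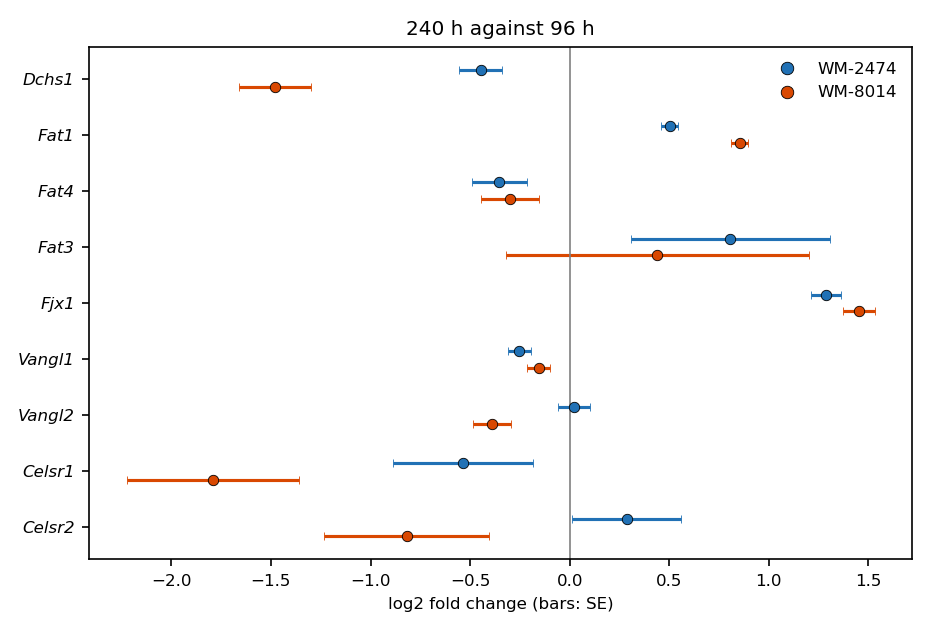
Log2 fold change from 96 h to 240 h under WM-2474 and under WM-8014 for the 9 genes; bars are standard errors. Fjx1 and Fat1 lie above 0 under both compounds, Dchs1 at -0.45 and -1.48, and Vangl2 at 0.02 and -0.39.

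The other genes of the pathway were taken as fixed lists and tested over all genes. These lists too were drawn up with earlier results of these data known, so their counts are no independent support. The first holds 11 further core polarity genes, of which 10 were tested. The receptor Fzd6 fell with WM-8014 at both times. The 96 h values were 29.4 ± 1.25 CPM under WM-2474 and 21.5 ± 0.873 CPM under WM-8014 (log2 -0.44, SE 0.0647, adjusted p = 6.2e-05). At 240 h it was at 35.1 ± 0.592 and 17.4 ± 1.24 CPM (-1.02, SE 0.0635, adjusted p = 6.16e-11). Prickle2, which encodes a cytoplasmic core protein, rose at 96 h (0.29, adjusted p = 0.0019) and at 240 h (0.23, adjusted p = 0.00422). Its rise at 96 h did not pass without early controls 6 and 7 (adjusted p = 0.0746) or without culture 7 (0.063), and that at 240 h not without culture 6 (0.0802). Dvl2, a Dishevelled gene, fell by 0.21 at 240 h (adjusted p = 0.00136). Celsr3, the third Celsr gene, rose at 96 h from 1.63 ± 0.0972 to 2.74 ± 0.46 CPM (0.73, SE 0.214, adjusted p = 0.0171). That rise did not pass without culture 5 (adjusted p = 0.132), 6 (0.0629) or 7 (0.0718) in all groups. At 240 h Celsr3 had 1.98 ± 0.187 CPM under WM-2474 and 3.15 ± 0.864 CPM under WM-8014. In all 3 rose and 1 fell at 96 h (median -0.03), where 10.9% and 11.8% of all tested genes did (22.8% in all). At 240 h 5 rose and 2 fell (median 0.06), where 21.2% and 21.4% did (42.6% in all). Without those 2 libraries 0 rose and 1 fell at 96 h.

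Of 19 polarity ligands, co-receptors and effectors, 0 rose and 5 fell at 96 h (median -0.10), and 2 rose and 6 fell at 240 h (median -0.02). Among all tested genes 10.9% rose and 11.8% fell at 96 h (22.8% in all), and 21.2% and 21.4% at 240 h (42.6% in all). Wnt5a, the ligand best known for polarity in mesenchyme, fell from 152 ± 4.95 to 123 ± 7.01 CPM at 96 h (log2 -0.31, SE 0.0491, adjusted p = 0.000161) and from 197 ± 11.6 to 137 ± 6.16 CPM at 240 h (-0.51, SE 0.0479, adjusted p = 3.24e-08). Dact1 had 12.6 ± 0.349 CPM in the WM-2474 96 h group and 10.0 ± 2.02 CPM in the WM-8014 96 h group. At 240 h it fell from 23.1 ± 0.467 to 9.52 ± 1.35 CPM (-1.28, SE 0.106, adjusted p = 4.65e-09). The cell-polarity scaffold gene Scrib fell by 0.32 at 240 h (adjusted p = 1.97e-06), while Rock2, a kinase that acts on myosin, went up by 0.54 (616 ± 18.5 to 896 ± 66.6 CPM, SE 0.0509, adjusted p = 1.96e-07). Wnt11 fell by 0.71 at 96 h (adjusted p = 0.00399). Without early controls 6 and 7 the fall of Wnt11 did not pass (adjusted p = 0.239), and 0 rose and 1 fell at 96 h in this list.

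Of 9 tested genes whose products are reported to act with Fat or Dachsous proteins, 2 rose and 0 fell at 96 h and likewise at 240 h (medians 0.02 and 0.05). The shares of all tested genes that rose and fell were 10.9% and 11.8% at 96 h (22.8% in all), and 21.2% and 21.4% at 240 h (42.6% in all). Enah, an actin regulator, rose from 134 ± 6 to 154 ± 6.81 CPM at 96 h (log2 0.20, SE 0.0502, adjusted p = 0.00641). Its rise at 240 h was 0.32, from 225 ± 12.1 to 280 ± 16.4 CPM (SE 0.0477, adjusted p = 2.16e-05). The earlier rise did not pass without culture 7 (adjusted p = 0.0869) or without early controls 6 and 7 (0.0608), where 0 of the list rose. Of 14 Hippo kinases, adaptors and regulators, 0 rose and 5 fell at 96 h (median -0.04), again against 10.9% and 11.8%. At 240 h 2 rose and 4 fell (median -0.04), against 21.2% and 21.4%. Wwc2, which encodes a Kibra relative upstream of the kinases, fell by 0.19 at 96 h (adjusted p = 0.00194) and by 0.24 at 240 h (adjusted p = 6.05e-05). Its fall at 96 h did not pass without early controls 6 and 7 (adjusted p = 0.0908), where 0 of the 14 passed. The kinase gene Lats2 rose at 240 h from 175 ± 4.48 to 207 ± 12.8 CPM (0.25, SE 0.041, adjusted p = 4.48e-05), and Frmd6, the Expanded relative, fell by 0.23 (adjusted p = 8.35e-05).

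The other cadherins included several that fell at both times. Of 19 cadherins and non-clustered protocadherins 15 were tested, and 1 rose and 7 fell at 96 h (median -0.30), while 2 rose and 9 fell at 240 h (median -0.52). Over all tested genes 10.9% rose and 11.8% fell at 96 h, and 21.2% and 21.4% at 240 h. Cdh3, which encodes P-cadherin, fell from 57.0 ± 4.86 to 38.1 ± 2.36 CPM at 96 h (log2 -0.56, SE 0.0948, adjusted p = 0.00128) and from 130 ± 4.79 to 63.7 ± 8.33 CPM at 240 h (-1.03, SE 0.0835, adjusted p = 8.97e-07). At 240 h Cdh10 fell from 4.19 ± 0.659 to 1.24 ± 0.226 CPM (-1.70, SE 0.191, adjusted p = 2.92e-07). Pcdh20 fell from 1.47 ± 0.122 to 0.237 ± 0.154 CPM, the latter from 14 reads (-2.53, SE 0.348, adjusted p = 4.72e-06). Cdh13, a cadherin held by a lipid anchor, rose by 0.66 (44.6 ± 3.26 to 70.5 ± 7.27 CPM, SE 0.0807, adjusted p = 1.12e-05). Without early controls 6 and 7, 0 rose and 2 fell at 96 h, and the 240 h counts of all 5 lists were the same.

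**Figure D5:**
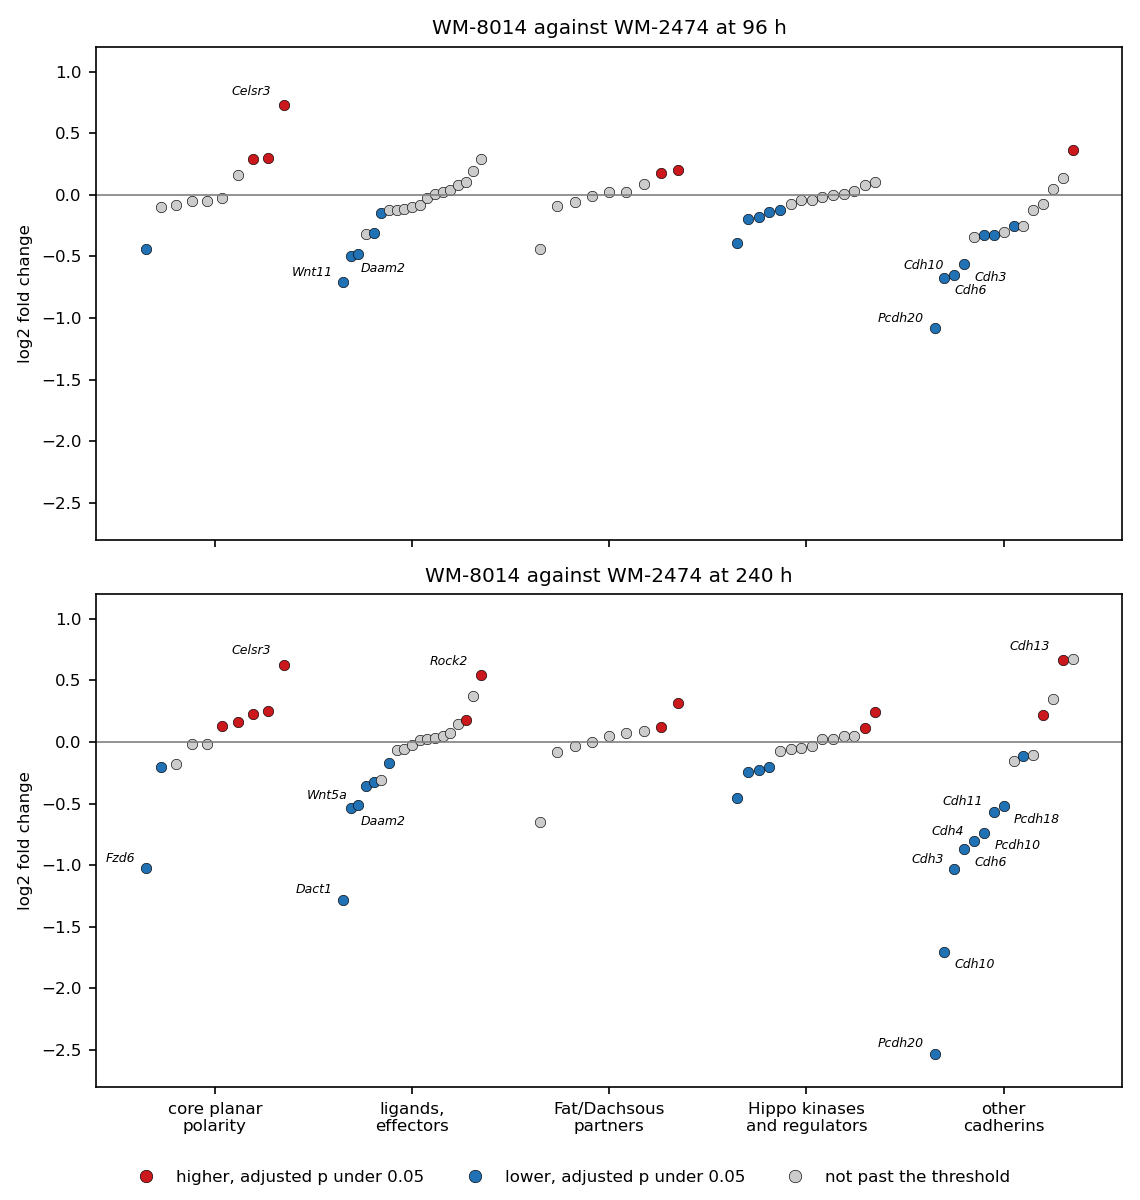
Log2 fold change of WM-8014 against WM-2474 for each tested gene of 5 lists at 96 h (upper panel) and 240 h (lower panel); red and blue points passed on the higher or lower side and grey points did not. Fzd6 (-1.02), Dact1 (-1.28) and Pcdh20 (-2.53) are the lowest of their lists at 240 h.

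The lists were also tested over time. From 96 to 240 h under WM-2474, 3 core polarity genes rose and 1 fell, 9 ligands and effectors rose and 3 fell, 5 Fat or Dachsous partners rose and 1 fell, and 7 Hippo genes rose and 2 fell. Under WM-8014 these counts were 3 and 2, 10 and 2, 4 and 1, and 7 and 2. Other cadherins rose and fell in like number, 4 and 4 under WM-2474 and 5 and 5 under WM-8014. Of all tested genes 19.8% rose and 19.1% fell under WM-2474, and 24.8% and 25.0% under WM-8014. Ptk7, a co-receptor of polarity signalling, rose by 0.65 under WM-2474 (SE 0.0395, adjusted p = 3.12e-11) and by 0.63 under WM-8014 (SE 0.0397, adjusted p = 2.46e-11). Enah rose by 0.75 and 0.86 (adjusted p = 4.12e-10 and 2.29e-11), Frmd6 by 0.58 and 0.48 (adjusted p = 2.05e-10 and 2.47e-09) and Cdh3 by 1.21 and 0.74 (adjusted p = 2.57e-07 and 3.33e-05). Dvl2 fell by 0.33 and 0.49 (adjusted p = 6.25e-06 and 2.6e-08). Dact1 rose by 0.88 under WM-2474 (adjusted p = 4.81e-07). Fzd6 rose by 0.27 under WM-2474 (adjusted p = 0.00098, and 0.192 without early controls 6 and 7) and fell by 0.31 under WM-8014 (adjusted p = 0.000732). Without those 2 libraries, and under WM-2474, 1 core gene rose and 1 fell, 6 ligands and effectors rose and 2 fell, 3 partners rose and 0 fell, 3 Hippo genes rose and 1 fell, and 3 other cadherins rose and 3 fell. Under WM-8014 the core list then held 2 rises and 2 falls, and the counts of the other lists were as above.

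Markers of other cell types differed between the groups, at sums far below that of the fibroblast markers but in part above the levels of Dchs1 or Vangl2. Summed markers of epithelium and mesothelium (5 of 10 above the filter) were at 40.9 to 60.8 CPM (WM-2474) and 39.9 to 68.4 CPM (WM-8014) at 96 h, and at 16.9 to 18.4 CPM and 21.3 to 27.7 CPM at 240 h. Epcam had no read in the WM-8014 groups, and Cdh1 none in the WM-2474 240 h group. Skeletal muscle markers (1 of 6 above the filter) were at 20 to 24.1 and 31.2 to 34.1 CPM at 96 h and at 28.2 to 34.8 and 81.8 to 106 CPM at 240 h, in WM-2474 and WM-8014 respectively, with Pax7 at 0 in the first 3 of these groups and Myod1 and Myf5 at 0 in the last. Des, the 1 above the filter, made up nearly all of it (at 240 h 30.2 ± 3.46 CPM under WM-2474 against 92.5 ± 12.2 CPM under WM-8014). The other muscle markers had at most 38 reads in a group. Neural and glial markers (6 of 8) were at 165 to 182, 141 to 161, 146 to 182 and 186 to 209 CPM in the same order, with Dcx at 0 in the first. That sum is mostly Nes (at 240 h 98.1 ± 9.82 CPM under WM-2474 against 136 ± 5.66 CPM under WM-8014) and Tubb3. At 240 h 1 of the 6 tested rose and 3 fell (median -0.77), where 21.2% and 21.4% of all tested genes did. Among those that fell were Sox10 (2.35 ± 0.279 and 0.927 ± 0.259 CPM) and Elavl4 (1.10 ± 0.269 and 0.159 ± 0.0504 CPM). Endothelial markers (4 of 6) were at 6.29 to 8.01, 4.09 to 6.62, 2.67 to 3.76 and 2.9 to 3.06 CPM, and macrophage markers (3 of 6) at 7.16 to 7.79, 8.79 to 12.3, 5 to 6.38 and 9.57 to 11.3 CPM. Their part in the values above was not tested.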

How the data were processed

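Raw read counts for each Entrez gene were deposited by the authors in 1 table, and featureCounts and mm10 are named in the submitters' processing notes. Libraries were stranded and poly(A)-selected, per the labels' protocols. Not given in the sources used here are the aligner, the annotation, tool versions and whether counting used strand. The deposited gene lengths served only for RPKM. Of 27179 identifiers, 25275 (93%) were named through a RefSeq gene table of GRCm38.p6. Pairs of replicates differed by more than sampling noise (chi-square per degree of freedom 2.1 to 7.13), so each library was kept as a sample of its own.

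Tests used edgeR 4.0.16 under R 4.3.3 (filterByExpr by group, TMM scaling, 1 coefficient per group with all 12 libraries in the model, robust quasi-likelihood test, two-sided, common biological coefficient of variation 4.64%). Adjusted p values are Benjamini-Hochberg values over all 14136 tested genes, with 0.05 as threshold. Standard errors were derived from the fold change and its F statistic, and 95% intervals from them. Limits of 3 reads cover counting error only. Alternatives were DESeq2 1.42.0, its size factors, no filter, the compared groups alone, culture as a block and libraries left out.

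The genes and lists were chosen with earlier results of these data known. Named were the listed genes, up to 4 genes per list and comparison by smallest p among those that passed (the text gives a part of these), the 5 genes most like Dchs1, and Cdh1 and Epcam. Other markers are named by their values, to show what a marker list or its sum holds. Same-numbered cultures deviated together at 96 h (correlations of deviations across genes 0.141 to 0.158, all over 0.1), which is a pairing read from the data. The main tests had no term for culture and so did not use it. Blocking by culture changed no call of a named gene at 96 h. In the other comparisons not every correlation passed (0.0289 to 0.243). Counts of cultures that moved one way match cultures by number in every comparison, so outside 96 h they rest on the labels alone. Cultures are called biological replicates in the series' design text, with no word on how each was derived.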

Additional observations from a re-analysis of the deposited data

Results flagged for a closer look

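In 11 list genes (2 of 10 core polarity genes, 5 of 19 ligands and effectors, 1 of 9 Fat or Dachsous partners, 1 of 14 Hippo genes and 2 of 15 other cadherins) the effect of WM-8014 differed between 96 and 240 h by the interaction test of edgeR, where 10.7% of all tested genes passed. The rule for named genes takes 10 of them, and the other one is Rock1 (0.20, adjusted p = 0.0183). Each value is the log2 effect at 240 h minus that at 96 h. It was lower at 240 h in Cdh10 (-1.05, adjusted p = 0.0127), Dact1 (-0.96, adjusted p = 0.000356), Fzd6 (-0.58, adjusted p = 0.000197), Cdh3 (-0.47, adjusted p = 0.0354) and Scrib (-0.24, adjusted p = 0.00928). It was higher in Wnt11 (1.09, adjusted p = 0.00324), Rock2 (0.43, adjusted p = 0.000784), Lats2 (0.25, adjusted p = 0.0081), Dvl1 (0.25, adjusted p = 0.0199) and Dlg5 (0.18, adjusted p = 0.0418). Dact1, Fzd6 and Rock2 passed under all 20 alternatives run for each. Without early controls 6 and 7 the other 7 genes given above with their direction did not pass, except Dvl1: Cdh10 had an adjusted p of 0.109, Cdh3 of 0.123, Scrib of 0.0809, Wnt11 of 0.112, Lats2 of 0.0826 and Dlg5 of 0.302. Dvl1 did not pass without culture 5, 6 or 7 in all groups (adjusted p = 0.112, 0.0751 and 0.102), or without any 1 of 4 single libraries: culture 5 of WM-2474 at 96 h (0.0568) or 240 h (0.0624), culture 7 of WM-8014 at 96 h (0.0564) and culture 6 of WM-8014 at 240 h (0.0519). Cdh3 and Dlg5 failed in most leave-outs, with adjusted p up to 0.316 and 0.494. Leaving a culture out of all groups also ended the calls of Lats2 (0.123 without 5, 0.116 without 6), Scrib (0.101 and 0.0758), Wnt11 (0.11 without 6) and Cdh10 (0.177 without 7).

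Celsr1 was higher with WM-8014 in all 3 cultures at 96 h and lower in all 3 at 240 h, a difference of -1.25 on the log2 scale. It rests on 12 to 45 reads per group, was -2.16 without culture 6 of WM-8014 at 240 h, and was not tested. Groups of 3 are too small for a test of single outlying libraries.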

How the results depend on the processing

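Counts of called genes depended on the libraries used. Without early controls 6 and 7 they were 432 higher and 437 lower (1544 and 1674 with all), 1454 and 1256 for time under WM-2474 (2800 and 2697) and 240 and 346 for the interaction (728 and 782); fewer libraries alone can end calls. Leaving out 1 library or 1 culture gave 847 to 1616 higher and 903 to 1776 lower at 96 h, and 315 to 802 higher and 409 to 801 lower for the interaction.

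Of the single-gene values under alternatives, 2557 kept direction and side of the threshold, or stayed within the spread between cultures, 125 no longer passed, 9 newly passed, 21 untested values moved by more than that spread and 2 reversed. Neither reversed value had passed: Vangl2 over time under WM-2474 (-0.0019 to 0.040 over leave-outs, the lowest without culture 7 of WM-2474 at 96 h) and Fat3 over time under WM-8014 (-0.88 to 1.59, the lowest without culture 7 of WM-8014 at 240 h). The causes were not tested. The compound differences of Dchs1 stayed between -1.84 and -1.59 at 96 h and between -2.92 and -2.46 at 240 h under 21 alternatives each. Those of Celsr1 reached -1.88 at 240 h without culture 6 of WM-8014 at 240 h.

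With culture as a replicate block, 1737 genes were higher and 1853 lower at 96 h, Celsr2 over time under WM-8014 passed (-0.92, adjusted p = 0.026), the interaction of Cdh3 did not (adjusted p = 0.0883), and no other named call changed. In Fat3 and Celsr1, with few reads, the filter left fewer alternatives, and depth limits every statement on them. DESeq2 size factors moved the median of all genes by less than 0.1.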
